A study of Mus musculus with 24 samples.

Results

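Disulfide bond formation in the endoplasmic reticulum (ER) was followed through 10 genes in mouse embryonic fibroblasts (MEFs), cultures of connective tissue cells grown from embryos. P4hb, Pdia3, Pdia4, Pdia5, Pdia6 and Txndc5 encode protein disulfide isomerases, Ero1a and Ero1b the oxidases that recharge them, Erp44 a thioredoxin-like retention factor and Creld2 a stress-induced ER protein. The genes were taken by name, and each was read from the probe annotated to it, the brighter one for Pdia6, which had a second probe. All 10 were found among the 20166 genes named on the arrays, and all 10 were among the 14466 tested, those that the scanner called well above background throughout 1 group or more.

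RNA was measured on 24 one-colour arrays in 10 groups. PERKKO cells lack the ER stress kinase PERK, ATF4KO cells lack the transcription factor ATF4, and in eIF2a A/A cells the eIF2a serine that PERK phosphorylates is mutated to alanine. These 3 genotypes, called Perk-null, Atf4-null and eIF2a A/A below, and wild-type cells were given tunicamycin, which blocks N-glycosylation, at 2 µg/mL for 12 h by their labels, or were left untreated. The shared protocol names 12 or 24 h, and 1 untreated Perk-null array (replicate 2) has a file name with a 24 h mock in it. Fv2E-PERK transgenic cells, in which a dimerizing compound can switch on a fused PERK kinase domain without ER stress, were given AP for 12 h or left untreated. The labels spell out neither AP nor its dose, nor the promoter of the transgene. There were 4 arrays in each wild-type group and 2 in each of the other 8. The labels do not say whether replicates came from separate cultures, so p-values measure the spread of these samples alone and it may be technical.

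Proteins that enter the ER acquire disulfide bonds from the isomerases, which pass the electrons on to Ero1, a flavoenzyme that uses oxygen and releases hydrogen peroxide. Misfolded proteins switch on 3 ER sensors. ATF6 and IRE1 act through the transcription factors ATF6 and XBP1 on ER stress response elements (ERSE) in the promoters of chaperone and folding genes. PERK phosphorylates eIF2a, which lowers general translation while ATF4 and its target CHOP (Ddit3) are made, and Ero1a is a known CHOP target in mouse cells.

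The promoters of 7 genes are shown because the ERSE is the element through which ATF6 and XBP1 are known to act, and the genes differ in whether they hold its letters. The letters are RefSeq sequence of build GRCm38.p6, read 5' to 3' on the gene's strand up to the last base before the annotated start. Capitals mark the ERSE with any last letter, which is CCAAT, 9 bases of any kind and then CCAC and 1 base, on either strand, and in Txndc5 the letters TGACGTGG, the core of the element known for ATF6 and XBP1 binding.
Pdia6, chr12:17266439-17266588, + strand: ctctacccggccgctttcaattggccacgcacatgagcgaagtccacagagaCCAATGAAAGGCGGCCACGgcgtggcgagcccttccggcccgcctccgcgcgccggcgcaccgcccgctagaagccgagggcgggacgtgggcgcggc
Creld2, chr15:88819496-88819645, + strand: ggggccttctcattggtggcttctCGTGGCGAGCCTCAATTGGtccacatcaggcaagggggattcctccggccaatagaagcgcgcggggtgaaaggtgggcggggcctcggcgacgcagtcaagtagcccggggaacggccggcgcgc
Ero1b, chr13:12565673-12565882, + strand: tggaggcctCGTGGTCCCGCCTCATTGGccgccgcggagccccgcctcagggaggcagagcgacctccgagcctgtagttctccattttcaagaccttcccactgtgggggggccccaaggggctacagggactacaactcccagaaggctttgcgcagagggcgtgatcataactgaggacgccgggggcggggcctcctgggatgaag
Pdia3, chr2:121413752-121413901, + strand: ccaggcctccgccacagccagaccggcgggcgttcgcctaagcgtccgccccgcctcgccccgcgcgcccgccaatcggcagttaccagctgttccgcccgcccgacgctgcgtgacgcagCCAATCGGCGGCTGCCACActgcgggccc
Pdia4, chr6:47813513-47813662, - strand: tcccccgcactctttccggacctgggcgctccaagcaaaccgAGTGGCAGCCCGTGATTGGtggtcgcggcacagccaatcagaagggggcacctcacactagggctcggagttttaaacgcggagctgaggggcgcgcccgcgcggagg
Txndc5, chr13:38527915-38528064, - strand: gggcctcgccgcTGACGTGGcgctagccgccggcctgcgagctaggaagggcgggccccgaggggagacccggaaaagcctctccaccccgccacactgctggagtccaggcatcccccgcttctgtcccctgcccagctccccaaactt
Ero1a, chr14:45318573-45318722, - strand: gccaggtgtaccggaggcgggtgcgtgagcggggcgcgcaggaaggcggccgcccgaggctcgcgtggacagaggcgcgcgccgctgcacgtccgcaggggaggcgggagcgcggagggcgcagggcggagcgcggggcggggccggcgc

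The windows searched ran from 250 bases before to 50 bases after each annotated start, on both strands. The full ERSE, CCAAT and CCACG with 9 bases between them, was in the windows of Pdia6 (positions -98 to -80 from the start), Creld2 (-126 to -108) and Ero1b (-201 to -183). It was in 0.119% of 32851 windows of all genes. Pdia3 and Pdia4 held the form with another last letter, which 5 of the 10 genes and 0.365% of all windows had, the full ERSE included. TGACGTGG was in 1 window of Txndc5 and in 0.676% of all windows. The C/EBP-ATF element TGATGNAAN, through which ATF4 and CHOP act, was in a window of Txndc5 and in 3.95% of all windows. ATTGG and CCACG with 1 base between them, a second form of the ERSE, was in 0 member windows and 0.0365% of all windows. The Ero1a window held none of these motifs. A match describes the letters and shows no binding, and the CCAAT letters are part of both ERSE forms.

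Values below are log2 signal over the 75th percentile of the array's signals, called levels. They differ between probes for technical reasons, so that a gene is compared with itself only. Changes are log2 differences ± standard error from 1 limma fit over all 24 arrays, and a change was called at an adjusted p (Benjamini-Hochberg over all genes tested) below 0.05. The arrays were scanned in 3 runs. The Atf4-null arrays shared run 1 with wild-type replicates 1 and 2. The Perk-null arrays shared run 2 with wild-type replicates 3 and 4. Run 3 held the eIF2a A/A and Fv2E-PERK arrays on a second version of the array design. The fit holds a term for scan run 2, so a difference between untreated genotypes can depart from that of the levels printed. The names of the data files set the wild-type cells of runs 1 and 2 apart as being of different origin, so that run and origin cannot be told apart.

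Among the checks of the labels, Atf4 read -4.27 and 0.01 in tunicamycin-treated and 2.79 and -0.05 in untreated Atf4-null cells, against 7.20 to 9.14 on the wild-type arrays. The probes of Eif2ak3, which encodes PERK, and of Eif2s1, which encodes eIF2a, are not placed relative to the mutations here and check nothing. Fibroblast markers summed to 7.83 to 10.4 (log2) over all groups, with 10 to 12 of 12 well above background on every array of a group. Epithelial markers summed to 5.47 to 5.87 on the Perk-null arrays and to at most 0.483 elsewhere. Over all groups haematopoietic markers summed to 3.53 to 6.5, endothelial ones to 2.14 to 4.16 and neural ones to 1.81 to 3.2. Adipocyte and bone markers summed to -2.52 to 3.34. The part of these markers in the results of any genotype was not tested. In bulk RNA a change in the share of a cell type and a change of RNA per cell cannot be told apart.

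**Figure D1:**
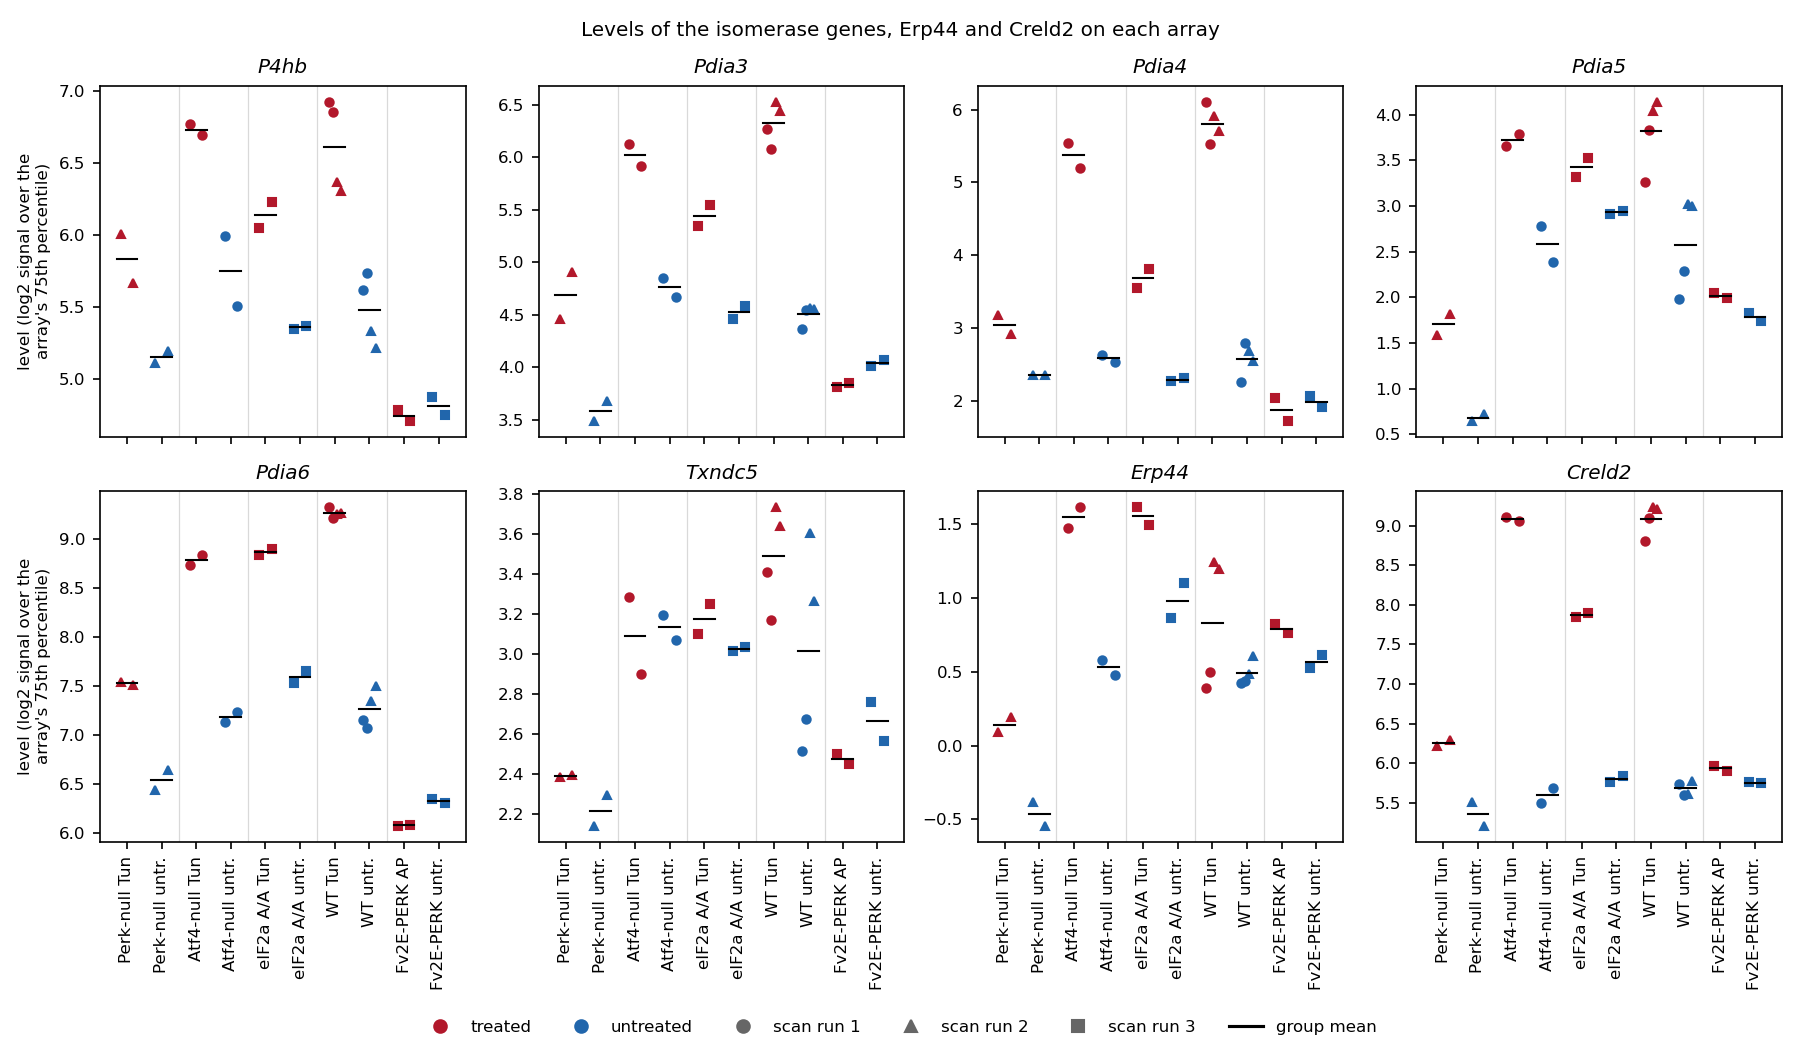
Levels of 8 genes on each array (y axis, log2 of signal relative to the 75th percentile of the array) by group (x axis), with treated groups left of untreated ones. Each point is 1 array, its shape gives the scan run and the line is the group mean. Creld2 lies between 8.80 and 9.24 in tunicamycin-treated wild-type cells and between 5.60 and 5.78 in untreated ones.

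In wild-type cells all 10 genes rose with tunicamycin, by a median of 1.88, while the median over all genes tested was 0.07. Over all genes 21.2% were called higher and 37.5% were called in either direction. The largest rises were those of Ero1b (11.4-fold), Creld2 (10.6-fold) and Pdia4 (9.39-fold), and the smallest were those of Txndc5 (1.39-fold) and Erp44 (1.27-fold). In 8 of the 10 genes every treated array lay above every untreated one, which held for 13.7% of all genes. Without the run term 8 of the 10 were called, as were 8 with only the wild-type arrays fitted, in both cases all but Txndc5 and Erp44. These fits called 3604 and 3845 of the 14466 genes, against 5425 in the fit over all arrays.

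Among the isomerases, Pdia4 (ERp72), an isomerase found in complexes with ER chaperones, changed most. It read 6.10, 5.52, 5.91 and 5.70 in tunicamycin-treated and 2.27, 2.80, 2.70 and 2.55 in untreated wild-type cells. The groups were far apart, and the change was 3.23 ± 0.15 (adjusted p = 3.55e-10). Pdia6 (P5), which works with the chaperone BiP, read 9.32, 9.21, 9.25 and 9.26 treated and 7.15, 7.06, 7.34 and 7.50 untreated, a change of 2.00 ± 0.09 (adjusted p = 2.28e-10). Its second probe, left out of the fit, changed by 2.39. Pdia3 (ERp57), which folds glycoproteins held by calnexin and calreticulin, read 6.27, 6.08, 6.53 and 6.45 treated and 4.37, 4.54, 4.57 and 4.56 untreated. That rise was 1.82 ± 0.11 (adjusted p = 6.38e-09), or 3.54-fold.

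P4hb is the founding isomerase, PDI, and also a subunit of collagen prolyl 4-hydroxylase. It read 6.92, 6.85, 6.37 and 6.31 with tunicamycin and 5.62, 5.74, 5.33 and 5.22 without, with the arrays of run 1 higher than those of run 2 in both groups. The change was 1.14 ± 0.11 (adjusted p = 1.03e-06). Pdia5 (PDIr) read 3.26, 3.83, 4.04 and 4.14 in treated and 1.98, 2.29, 3.02 and 3.0 in untreated wild-type cells. Here run 2 was the higher in both groups and the treated and untreated ranges came close, with a change of 1.25 ± 0.13 (adjusted p = 3.17e-06).

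Txndc5 (ERp46) and Erp44, the factor that holds Ero1 in the early secretory pathway, were the 2 genes whose groups overlapped. Txndc5 read 3.41, 3.17, 3.74 and 3.64 treated and 2.52, 2.68, 3.61 and 3.26 untreated, and its change of 0.47 ± 0.12 (adjusted p = 0.00575) was 0.70 in run 1 and 0.25 in run 2 (adjusted p = 0.242). Erp44 read 0.39, 0.50, 1.24 and 1.20 treated and 0.42, 0.43, 0.48 and 0.61 untreated. Its rise of 0.34 ± 0.12 (adjusted p = 0.0309) lay in run 2, at 0.67 (adjusted p = 0.000836), while run 1 gave 0.01 (adjusted p = 0.949). With the replicate number as a block, which treats arrays of the same number as pairs, the adjusted p of Erp44 was 0.106. The call of Erp44 was also lost with no filter on dim probes (adjusted p = 0.0562). It was lost as well without untreated or treated wild-type replicate 3 or 4 (0.25 to 0.30). No test of the difference between the runs was made. In run 1 treated and untreated arrays sat on different slides and were scanned on different days. Slide, scan day and treatment cannot be told apart there.

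The oxidases moved with the isomerases in these cells. Ero1b read 3.26, 2.79, 2.79 and 2.71 in tunicamycin-treated and 0.04, -0.34, -1.13 and -1.06 in untreated wild-type cells, and rose by 3.51 ± 0.18 (adjusted p = 1.53e-09). Ero1a read 1.07, 0.83, 1.73 and 1.65 treated and -0.85, -0.38, -0.57 and -0.64 untreated, and rose by 1.93 ± 0.27 (adjusted p = 5.05e-05). The Ero1a change was smaller than the Ero1b change by 1.59 on the log2 scale (two-sided exact permutation test over 4 treated against 4 untreated arrays, p = 0.0286, the smallest this test allows). The test shuffled arrays across the 2 scan runs and took no account of run. The untreated Ero1a minus Ero1b level was -0.88 and -0.03 in run 1 and 0.56 and 0.42 in run 2. The difference between the changes was -1.62 in run 1 and -1.55 in run 2, where 2 against 2 arrays cannot go below 0.333. Without any 1 of the treated arrays the permutation p was 0.0571. Creld2 read 8.80, 9.10, 9.24 and 9.22 treated and 5.74, 5.60, 5.62 and 5.78 untreated, and its change of 3.41 ± 0.10 (adjusted p = 3.69e-12) was 3.28 in run 1 and 3.53 in run 2. Apart from Txndc5 and Erp44, each gene was called in both runs. Of all 14466 genes, 4706 were called with the wild type of run 1 alone and 3758 with that of run 2 alone. Those called in both were not counted.

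**Figure D2:**
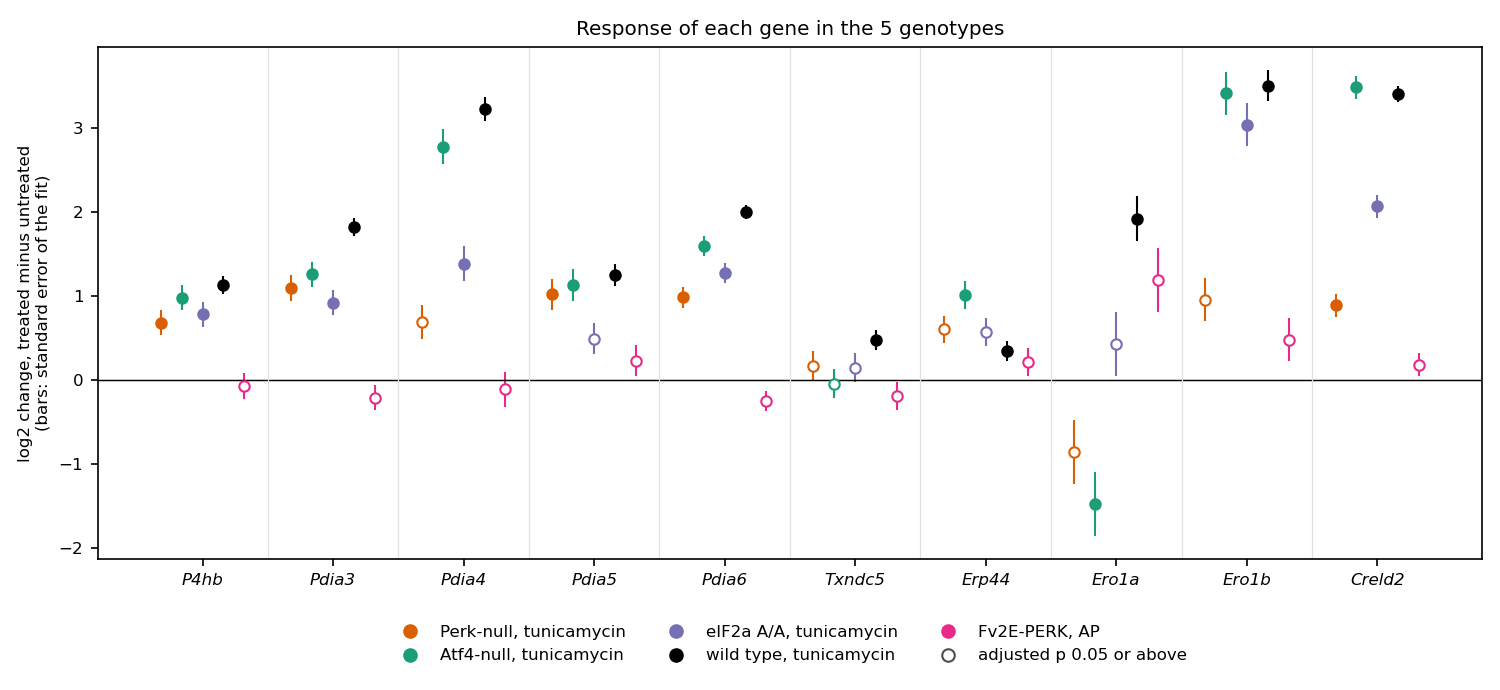
Log2 change of each gene, treated minus untreated, in 5 genotypes (y axis, points are the fit's estimates and bars their standard errors). Filled points passed an adjusted p of 0.05. Ero1a stands at -0.86 in Perk-null, -1.47 in Atf4-null and 1.93 in wild-type cells, while Creld2 is above 0 in all 4 genotypes given tunicamycin.

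The question for the Perk-null cells was how the response looked in cells that lack PERK. With tunicamycin 5 of the 10 genes rose there (P4hb, Pdia3, Pdia5, Pdia6 and Creld2), where 1.87% of all genes were called higher, 0.408% lower and 2.28% in either direction. The median change was 0.79, against 0.02 over all genes. In 9 genes both treated arrays lay above both untreated ones, which held for 26.6% of all genes, and Ero1a was the exception. Untreated replicate 1 and treated replicate 2 lay on slide 4 of run 2, and the other two arrays on slide 3. With these 4 arrays fitted alone 0 genes were called by limma (9 at an unadjusted p below 0.05), so that the calls rest on the spread shared with the other groups.

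Of the isomerases, Pdia3 read 4.46 and 4.91 in tunicamycin-treated and 3.49 and 3.68 in untreated Perk-null cells, a rise of 1.10 ± 0.15 (adjusted p = 0.000853). Pdia6 rose by 0.99 ± 0.12 (adjusted p = 0.000405) and Pdia5 by 1.02 ± 0.19 (adjusted p = 0.00692). P4hb, with 6.01 and 5.66 treated and 5.11 and 5.19 untreated, rose by 0.68 ± 0.15 (adjusted p = 0.0246). Pdia4 read 3.18 and 2.92 treated and 2.36 on both untreated arrays, and its change of 0.69 ± 0.21 did not pass (adjusted p = 0.109). The treated arrays were the higher ones in each of these genes. The call of P4hb was lost with quantile normalization (adjusted p = 0.0994), with no filter on dim probes (adjusted p = 0.0576), without the run term (adjusted p = 0.31) and without untreated replicate 1 (0.64, adjusted p = 0.18), untreated replicate 2 (0.73, adjusted p = 0.0994) or treated replicate 1 (0.51, adjusted p = 0.205). The call of Pdia5 was lost without untreated replicate 1 (0.99, adjusted p = 0.0704) or treated replicate 2 (0.91, adjusted p = 0.113).

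Creld2 rose by 0.89 ± 0.14 (adjusted p = 0.00194), with 6.21 and 6.30 in treated and 5.51 and 5.21 in untreated Perk-null cells. Ero1b read 0.45 and 1.10 treated and -0.23 and -0.14 untreated, and its change of 0.96 ± 0.26 missed the threshold (adjusted p = 0.0681), although it passed without treated replicate 1 (1.28, adjusted p = 0.0433). Ero1a read 0.33 and 0.60 treated and 1.00 and 1.64 untreated. The 2 untreated arrays were thus the higher ones for Ero1a, with a change of -0.86 ± 0.38 that did not pass (adjusted p = 0.357). Within the slides of run 2 it was -1.31 on slide 3 and -0.40 on slide 4. Txndc5 (0.17 ± 0.17, adjusted p = 0.828) and Erp44 (0.60 ± 0.17, adjusted p = 0.0739) did not pass either.

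Set directly against the wild-type response, the Perk-null response was smaller in 6 genes, where 6.63% of all genes differed downwards, 6.52% upwards and 13.1% in either direction. These were Ero1a (-2.78 ± 0.47, adjusted p = 0.00135), Ero1b (-2.55 ± 0.31), Pdia4 (-2.54 ± 0.25), Creld2 (-2.51 ± 0.17), Pdia6 (-1.02 ± 0.15) and Pdia3 (-0.72 ± 0.19, adjusted p = 0.019). With only the wild-type arrays of the same scan run the differences were -3.15, -2.88, -2.49, -2.64, -0.85 and -0.82 in that order, and all 6 were called. Pdia3 lost its call without untreated Perk-null replicate 2 (-0.63, adjusted p = 0.0881) or treated replicate 1 (-0.50, adjusted p = 0.128). Its call was also lost with quantile normalization (-0.61, adjusted p = 0.0516), against the wild type of run 1 alone (-0.62, adjusted p = 0.0872), without the run term (adjusted p = 0.0633) and with only the groups compared (adjusted p = 0.0797). Pdia5 did not pass (-0.23, 95% interval -0.71 to 0.26), nor did P4hb (-0.45, -0.85 to -0.06), Txndc5 (-0.30, -0.75 to 0.14) or Erp44 (0.26, -0.17 to 0.69). The fold response of Ero1b was 5.87-fold, that of Pdia4 5.81-fold and that of Creld2 5.71-fold smaller in Perk-null than in wild-type cells.

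Untreated Perk-null and wild-type cells already differed, with 2 genes higher and 6 lower in the Perk-null cells, where 41.1% of all genes were called, 16.3% higher and 24.8% lower. Untreated levels of Ero1a were 1.00 and 1.64 in Perk-null cells and -0.85, -0.38, -0.57 and -0.64 in wild-type cells. The groups did not overlap, and the difference was 1.74 ± 0.36 (adjusted p = 0.00112). Ero1b was higher by 0.74 ± 0.24 (adjusted p = 0.0218). Lower were Pdia5 (-2.25 ± 0.17), Erp44 (-1.17 ± 0.16), Txndc5 (-1.11 ± 0.16), Pdia3 (-1.03 ± 0.14), Pdia6 (-0.80 ± 0.11) and Creld2 (-0.40 ± 0.13). Pdia5 read 0.65 and 0.72 in untreated Perk-null cells and 1.98 to 3.02 in untreated wild-type cells. Against the wild type of run 2 alone the same 8 genes were called, with Ero1a at 1.92 and Pdia5 at -2.33. Ero1b lost its call without either Perk-null array (0.78 without replicate 1 and 0.70 without replicate 2) or without untreated wild-type replicate 3 (0.62) or 4 (0.66). Creld2 lost its call without Perk-null replicate 2 (-0.25, adjusted p = 0.253) or wild-type replicate 4 (-0.38, adjusted p = 0.0597). Beside these values stand the epithelial markers, of which 4 of 7 were called higher and 0 lower in untreated Perk-null cells, and the fibroblast markers, of which 1 of 12 was called higher and 10 lower. Their part was not tested.

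In Atf4-null cells 5 of the 6 isomerases rose, all but Txndc5, and Ero1a did not. With tunicamycin 8 of the 10 genes were called higher and 1 lower, where 12.0% of all genes were called higher and 17.0% lower, 29.0% in all. All Atf4-null arrays were scanned in run 1, with treated and untreated arrays on different slides and on different scan days. Slide, scan day and treatment cannot be told apart in them. With these 4 arrays fitted alone 0 genes were called by limma (8 at an unadjusted p below 0.05).

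Creld2 read 9.11 and 9.05 in treated and 5.50 and 5.69 in untreated Atf4-null cells, and rose by 3.49 ± 0.14 (adjusted p = 8.42e-10). Ero1b read 2.26 and 1.98 treated and -1.62 and -0.97 untreated, and rose by 3.42 ± 0.26 (adjusted p = 7.12e-07). Pdia4 rose by 2.78 ± 0.21, with 5.55 and 5.19 treated and 2.64 and 2.54 untreated. These had the largest changes of the 10 genes in this genotype. Creld2 and Ero1b hold the full ERSE and Pdia4 the form with another last letter in the promoters shown above. Pdia6, which also holds the full ERSE, and Pdia3, with another last letter, had smaller changes. A link between the element and the size of the change was not tested. Pdia6 rose by 1.60 ± 0.12, Pdia3 by 1.26 ± 0.15, Pdia5 by 1.13 ± 0.19, Erp44 by 1.01 ± 0.17 and P4hb by 0.98 ± 0.15. Txndc5 read 3.29 and 2.90 treated and 3.20 and 3.07 untreated, with a change of -0.04 ± 0.17 (adjusted p = 0.879).

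Ero1a was the gene that went the other way. It read -3.54 on both treated Atf4-null arrays, 1 of which was not well above background, and -2.91 and -1.23 on the untreated ones. The fall of 1.47 ± 0.38 on the log2 scale (a change of -1.47, adjusted p = 0.00975) rested on dim spots. It was 0.03 (adjusted p = 0.944) with normexp background correction, and -0.63 (adjusted p = 0.158) without untreated Atf4-null replicate 2.

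The direct comparison with wild type asked how the response differed in cells that lack ATF4. The Ero1a response was smaller, with a difference of -3.40 ± 0.47 (adjusted p = 0.000147), where 30.5% of all genes differed, 10.9% upwards and 19.5% downwards. Of the 2 treated Atf4-null arrays 1 was not well above background, so no fold is given. The difference was -1.66 (adjusted p = 0.00116) with normexp background correction and -3.03 (adjusted p = 0.00206) against the wild type of run 1 alone. Pdia3 had a smaller response (-0.56 ± 0.19, adjusted p = 0.0331), but 0.10 with quantile normalization (adjusted p = 0.736) and -0.46 (adjusted p = 0.159) against run 1 alone. Its call was also lost without any of 6 wild-type arrays (all but untreated and treated replicate 2), without untreated Atf4-null replicate 1 (-0.47) or without treated replicate 2 (-0.46). The same held for Pdia3 with array weights (adjusted p = 0.131), only the groups compared (adjusted p = 0.11), no run term (adjusted p = 0.0847) and no filter on dim probes (adjusted p = 0.0603). Erp44 had a larger response (0.67 ± 0.20, adjusted p = 0.0216), at 1.00 against run 1 and 0.34 (adjusted p = 0.122) against run 2. It lost its call with the replicate block (adjusted p = 0.0853), without untreated Atf4-null replicate 2 (0.62) or without treated replicate 2 (0.60). Array weights (0.41, adjusted p = 0.373), no run term (adjusted p = 0.119) and only the groups compared (adjusted p = 0.12) also ended the call of Erp44. The other 7 genes did not pass. Ero1b differed by -0.09 (95% interval -0.76 to 0.57), Creld2 by 0.08 (-0.27 to 0.44), Pdia4 by -0.45 (-0.99 to 0.09) and Pdia6 by -0.40 (-0.72 to -0.08, adjusted p = 0.0545).

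Without treatment, Ero1a and Ero1b were the genes called lower in Atf4-null than in wild-type cells, where 10.7% of all genes were called lower and 21.1% in either direction. Ero1a read -2.91 and -1.23 in untreated Atf4-null cells, both below the wild-type arrays at -0.85, -0.38, -0.57 and -0.64, with a difference of -1.28 ± 0.36 (adjusted p = 0.0181). Ero1b read -1.62 and -0.97 in Atf4-null cells and 0.04, -0.34, -1.13 and -1.06 in wild-type cells. The groups overlapped through the wild-type arrays of run 2 (-1.13 and -1.06). The fit, with its run term, gave a difference of -0.98 ± 0.24 (adjusted p = 0.00849). Against the wild type of run 1 alone the differences were -1.46 and -1.14. Without untreated Atf4-null replicate 1 they were -0.44 (adjusted p = 0.264) and -0.65 (adjusted p = 0.0945), and Ero1a also lost its call without untreated wild-type replicate 2 (-1.03, adjusted p = 0.0721).

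**Figure D3:**
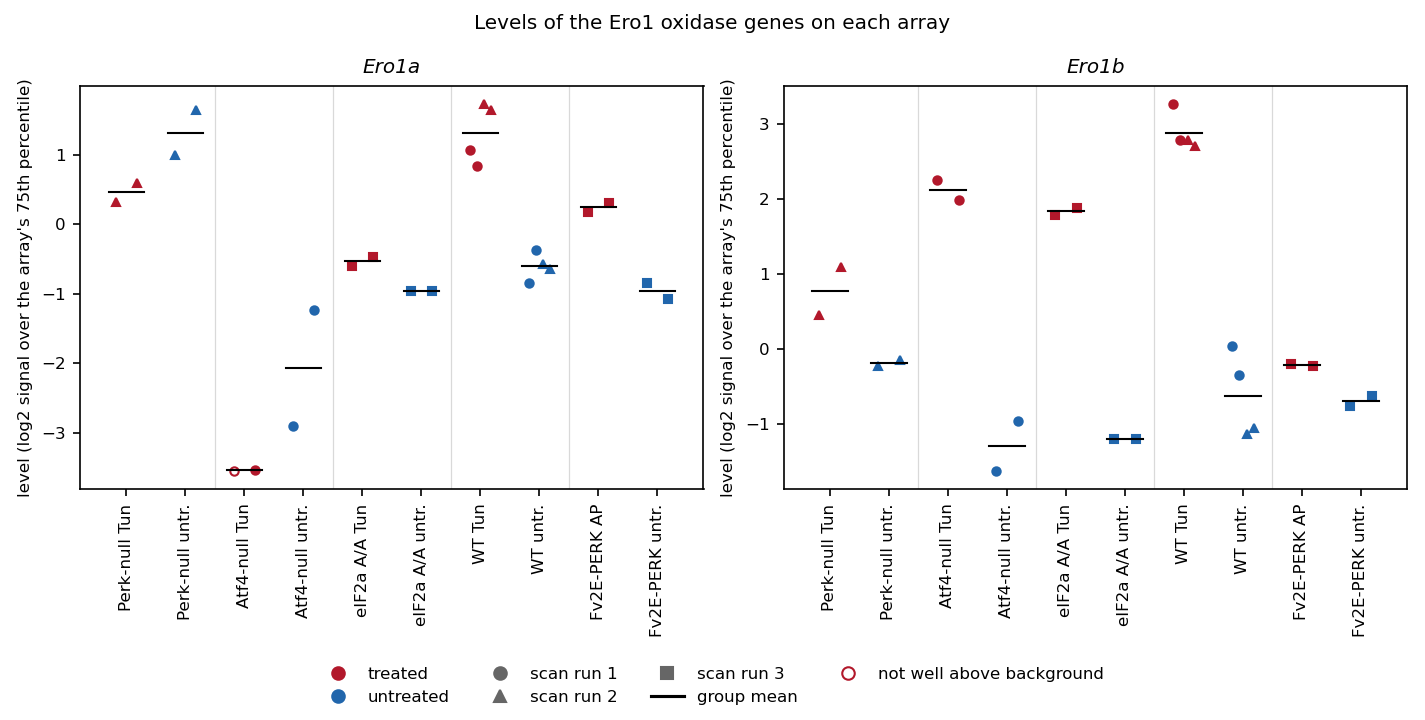
Levels of Ero1a (left) and Ero1b (right) on each array (y axis, log2 of signal relative to the 75th percentile of the array) by group, with treated groups left of untreated ones. Points are arrays, their shape gives the scan run, lines are group means and the open point was not well above background. Ero1a is at -3.54 in tunicamycin-treated Atf4-null cells, where Ero1b is at 1.98 and 2.26.

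In eIF2a A/A cells, whose eIF2a cannot be phosphorylated by PERK, 6 of the 10 genes rose with tunicamycin, where 3.08% of all genes were called higher and 4.89% in either direction. All 10 had both treated arrays above both untreated ones, which held for 35.5% of all genes. Ero1b read 1.79 and 1.88 in tunicamycin-treated and -1.21 on both untreated eIF2a A/A arrays, a rise of 3.04 ± 0.26 (adjusted p = 5.71e-06). Creld2 read 7.84 and 7.90 treated and 5.76 and 5.84 untreated, a rise of 2.07 ± 0.14 (adjusted p = 6.18e-07). Pdia4 rose by 1.39 ± 0.21, Pdia6 by 1.27 ± 0.12, Pdia3 by 0.92 ± 0.15 and P4hb by 0.78 ± 0.15. The calls thus covered 1 oxidase, Creld2 and 4 of the 6 isomerases. P4hb lost its call without untreated replicate 1 (0.77), untreated replicate 2 (0.80) or treated replicate 2 (0.69), and Pdia3 without treated replicate 2 (0.83, adjusted p = 0.0516).

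Ero1a read -0.60 and -0.47 in treated and -0.97 and -0.96 in untreated eIF2a A/A cells. The change of 0.43 ± 0.38 did not pass (adjusted p = 0.647), although these 4 arrays lie close together. The fit takes 1 spread for a gene over all groups, and the median SD per gene was 0.0671 in the treated and 0.0895 in the untreated eIF2a A/A group, against 0.209 to 0.314 in the Atf4-null groups. Pdia5 (0.49 ± 0.19, adjusted p = 0.165), Erp44 (0.57 ± 0.17, adjusted p = 0.0656) and Txndc5 (0.15 ± 0.17, adjusted p = 0.749) did not pass. Weighting the arrays by their own spread called Ero1a (adjusted p = 0.0302), Pdia5 (adjusted p = 0.000378) and Erp44 (adjusted p = 0.000121). The 4 arrays fitted alone also called these 3 (adjusted p = 0.0406, 0.0454 and 0.0453), which made 9 of the 10 genes. These fits called 5389 and 3281 of the 14466 genes, against 708 in the fit over all arrays.

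The eIF2a A/A response was smaller than the wild-type response in 6 genes, where 10.1% of all genes differed downwards, 8.12% upwards and 18.2% in either direction. The differences were -1.84 ± 0.25 for Pdia4 (adjusted p = 0.000195), -1.50 ± 0.47 for Ero1a (adjusted p = 0.0364), -1.34 ± 0.17 for Creld2 (adjusted p = 9.07e-05), -0.90 ± 0.19 for Pdia3, -0.75 ± 0.23 for Pdia5 (adjusted p = 0.0309) and -0.73 ± 0.15 for Pdia6. The calls of Ero1a and Pdia5 were lost with quantile normalization (adjusted p = 0.0524 and 0.0728). Against the wild type of run 1 alone, the Ero1a difference was -1.14 (adjusted p = 0.172). Its call was lost with the replicate block (adjusted p = 0.0605), without any 1 of the 4 eIF2a A/A arrays (-1.57 to -1.43) and without untreated wild-type replicate 1, 3 or 4 or treated replicate 3 or 4 (-1.48 to -1.41). Pdia5 lost its call without any 1 of the eIF2a A/A arrays (-0.86 to -0.65) or without untreated wild-type replicate 1 (-0.66). Ero1b did not pass, at -0.47 with an interval of -1.14 to 0.20. No wild-type array was scanned in run 3, so that each change was taken within its own run and untreated levels of eIF2a A/A and wild-type cells were not compared.

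**Figure D4:**
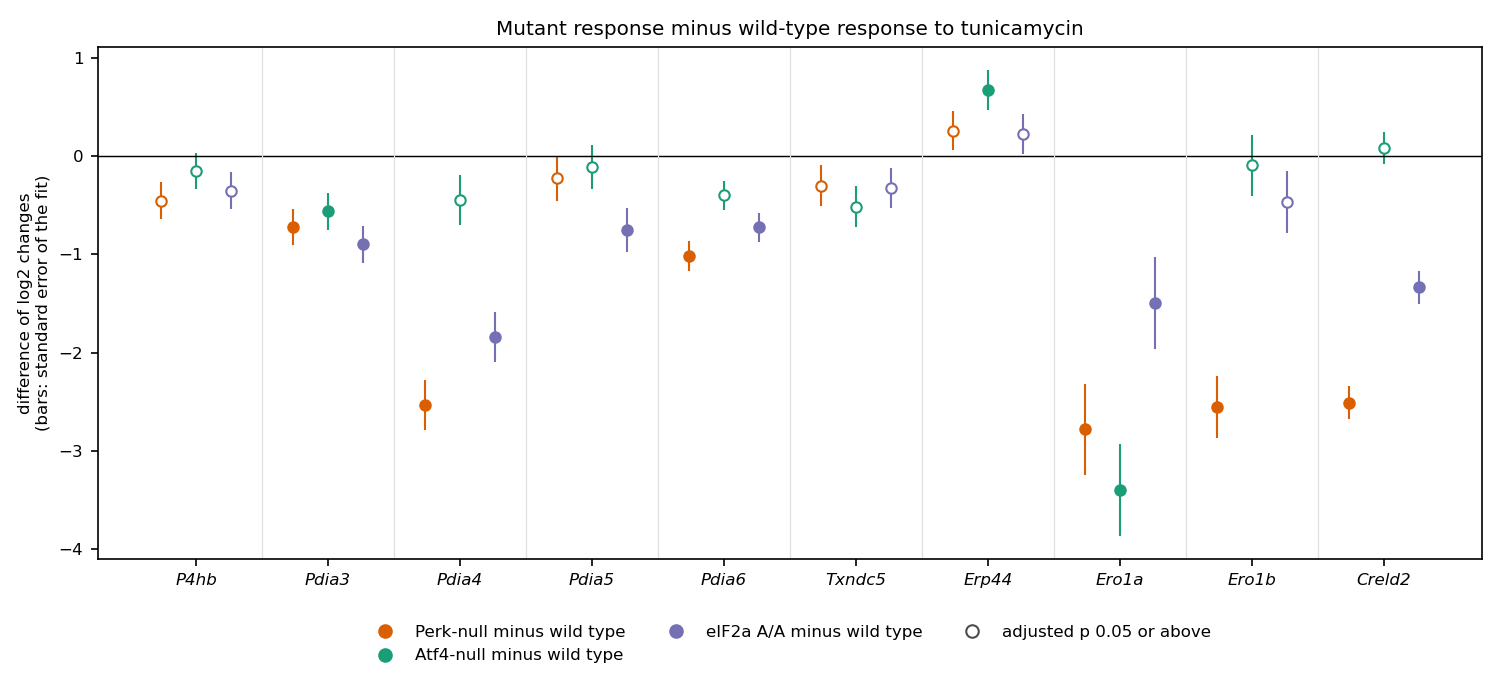
Response of each mutant minus the wild-type response, per gene (y axis, difference of log2 changes, bars are standard errors of the fit, filled points passed an adjusted p of 0.05). All 3 comparisons share the wild-type arrays. Ero1a lies below 0 in each, at -2.78, -3.40 and -1.50, while Creld2 lies at -2.51, 0.08 and -1.34 for Perk-null, Atf4-null and eIF2a A/A cells.

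The 3 differences share the 8 wild-type arrays and are therefore given side by side only. Ero1a had -2.78 in Perk-null, -3.40 in Atf4-null and -1.50 in eIF2a A/A cells. Ero1b had -2.55, -0.09 and -0.47, Creld2 -2.51, 0.08 and -1.34, and Pdia4 -2.54, -0.45 and -1.84 in the same order. Pdia3 was called lower in each of the 3 (-0.72, -0.56 and -0.90), with the settings that end its calls in Perk-null and Atf4-null cells given above. P4hb and Txndc5 were called in none of the 3, with differences of -0.45 to -0.15 and of -0.52 to -0.30. No test between the mutants was made.

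In Fv2E-PERK cells the question was what the PERK kinase does without ER stress. With AP 0 of the 10 genes passed in limma (1 at an unadjusted p below 0.05), where 4.06% of all genes were called. Array weights called 5 higher and 2 lower, the lower ones being Pdia3 (adjusted p = 0.0413) and Pdia6 (adjusted p = 0.00391), and the 4 arrays fitted alone called 2 higher. These fits called 5960 and 4156 of the 14466 genes, against 587 in the fit over all arrays. In 5 of the 10 both AP arrays lay above both untreated ones, which held for 45.4% of all genes, and in 3 both lay below, which held for 27.6%. The gene at an unadjusted p below 0.05 was Ero1a, which read 0.18 and 0.31 in AP-treated and -0.84 and -1.07 in untreated Fv2E-PERK cells. The arrays did not overlap, and the change of 1.20 ± 0.38 had an adjusted p of 0.102. It was called with array weights (adjusted p = 5.77e-06) and with the 4 Fv2E-PERK arrays fitted alone (adjusted p = 0.0125). Ero1b read -0.20 and -0.22 treated and -0.77 and -0.62 untreated, a change of 0.48 ± 0.26 (95% interval -0.07 to 1.03), and was also called in both of those fits (adjusted p = 0.00165 and 0.0259). Of the isomerases, Pdia4 had a difference of -0.11 (-0.55 to 0.33), Pdia6 of -0.25 (-0.51 to 0.01), Pdia3 of -0.21 (-0.53 to 0.12) and P4hb of -0.07 (-0.39 to 0.25). Creld2 read 5.97 and 5.91 with AP and 5.76 and 5.75 without, a change of 0.18 (-0.11 to 0.47). The upper ends of these intervals lie below the wild-type tunicamycin changes of the same genes. Those of Ero1a (0.39 to 2.01) and Erp44 (-0.13 to 0.57) do not, as these intervals include the wild-type changes of 1.93 and 0.34. AP and tunicamycin were given to different cells, and no test of the difference was made.

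In the order of its group means, Ero1a was highest in untreated Perk-null and tunicamycin-treated wild-type cells, at 1.32 ± 0.45 (SD, n = 2) and 1.32 ± 0.44 (SD, n = 4), which differ by less than their spread. Tunicamycin-treated Perk-null cells (0.46 ± 0.19) and AP-treated Fv2E-PERK cells (0.24 ± 0.09) followed. Treated eIF2a A/A (-0.53 ± 0.10) and untreated wild-type cells (-0.61 ± 0.20) came next and lay within each other's spread, as did untreated Fv2E-PERK (-0.95 ± 0.16) and untreated eIF2a A/A cells (-0.96 ± 0.01). The lowest were untreated Atf4-null cells (-2.07 ± 1.19) and treated ones, which read -3.54 on both arrays. On 1 of these 2 the spot was not well above background and below the array's lowest detected signal (-3.33), so that the level there is only a bound. These levels cross scan runs and are a description.

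Other genes of oxidative folding were called in both directions. Of 25 listed, 22 were tested, and in wild-type cells 7 were called higher and 3 lower, with a median of 0.31 against 0.07 over all genes. As 21.2% of all genes were called higher and 16.3% lower, these counts are not read as a result about the list. Txndc11, a thioredoxin-domain ER membrane protein, rose in each of the 3 mutants, by 0.68 (Perk-null), 1.64 (Atf4-null) and 1.44 (eIF2a A/A), and by 1.92 ± 0.11 in wild-type cells. Creld1, the membrane-bound relative of Creld2, differed by -0.14 in Perk-null cells (adjusted p = 0.918) and rose by 1.54 in wild-type cells. Pdia2, the pancreatic isomerase, rose by 1.51 (adjusted p = 0.0152), and Gpx7, a peroxidase that uses hydrogen peroxide from Ero1, fell by 1.10 on the log2 scale (adjusted p = 0.0206) in wild-type cells. In the mutants 3, 5 and 2 of the 22 were called higher and 0, 3 and 0 lower (Perk-null, Atf4-null and eIF2a A/A), and 0 in either direction with AP. Over all genes 1.87%, 12.0% and 3.08% were called higher in the same order, and 0.408%, 17.0% and 1.82% lower. With AP 4.06% of all genes were called in either direction.

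Of 11 partners of the isomerases, 4 rose and 2 fell in wild-type cells, counts to be read against the same shares of all genes. Tapasin (Tapbp), which holds Pdia3 in the peptide-loading complex, fell there by 1.87 on the log2 scale (adjusted p = 0.000268). Calreticulin (Calr) rose by 0.69 to 1.97 in the 3 mutants and by 2.04 in wild-type cells. Calnexin (Canx) rose by 0.79 to 1.06 in the mutants and by 1.38 in wild-type cells, and BiP (Hspa5) by 1.25 to 1.85 and by 2.19. With AP 0 of the 11 were called, against 4.06% of all genes.

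A further pair of lists holds targets of the ATF6 and XBP1 branch and of the ATF4 and CHOP branch. Both lists were chosen with results of these data known. Of 13 targets of ATF6 and XBP1, 10 rose in Perk-null cells (median 0.99), and all 13 in Atf4-null (median 2.05), eIF2a A/A (1.60) and wild-type cells (2.55). With AP 3 of 13 rose (median 0.15). Of 12 targets of ATF4 and CHOP, 6 rose in Perk-null cells (median 1.14), 4 rose and 4 fell in Atf4-null cells (median -0.36), 1 rose in eIF2a A/A cells (median 0.16) and 11 rose in wild-type cells (median 3.40). With AP 9 of these 12 rose (median 2.19). Over all genes 1.87% were called higher in Perk-null, 12.0% in Atf4-null, 3.08% in eIF2a A/A and 21.2% in wild-type cells. With AP it was 2.79%, and 17.0% were called lower in Atf4-null cells. The Perk-null response was smaller than the wild-type response in all 13 ATF6 and XBP1 targets (median difference -1.43). It was smaller in 6 of the 12 ATF4 and CHOP targets (median difference -1.325), where 6.63% of all genes differed downwards. Ddit3, which encodes CHOP, changed by 1.27 in Perk-null, 3.47 in Atf4-null, 1.13 in eIF2a A/A and 4.67 in wild-type cells and by 2.32 with AP, and was called in each. Ero1a is also known as a target of hypoxia signalling. Of 12 hypoxia targets, 2 rose and 4 fell in wild-type cells with tunicamycin (median -0.21), where Ero1a rose. Over all genes 21.2% were called higher there and 16.3% lower. In untreated Perk-null cells, where Ero1a was higher, 8 were higher and 1 lower, against 16.3% and 24.8% of all genes. In untreated Atf4-null cells, where Ero1a was lower, 10 were lower, against 10.7% of all genes. The part of hypoxia signalling was not tested.

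Likeness to other genes was measured as Pearson's r over the 10 group means, a description with no test, as the means share arrays, scaling and scan runs. Sdf2l1 was closest to Creld2 (0.995), followed by Dnajc3 (0.981) and Hyou1 (0.979), all genes of ER chaperone complexes. Pdia4 was closest to Calr (0.983), followed by Phkg2 and Klf15 (both 0.967). Pdia6 and P4hb had Os9 among their 3 likest genes (0.982 and 0.965), but P4hb was closest to Mfsd11 (0.967). Ero1b had Edem1 (0.964), Ficd (0.964) and Dnajb9 (0.956). Txndc5 was closest to Mfsd5 (0.984), Tmeff2 (0.974) and C2cd2 (0.972). Ero1a was closest to Clcn3 (0.971), and Erp44 to Ide (0.962). Among the 10 genes themselves, Pdia4 and Creld2 had an r of 0.956 and P4hb and Pdia3 one of 0.949. Ero1a had values between -0.578 (Erp44) and 0.104 (Ero1b) with the other 9 genes.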

How the data were processed

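RNA of 24 MEF samples was hybridised to one-colour Agilent arrays, 1 array per sample. Per the file headers, the deposited intensity values were made with Agilent Feature Extraction 10.7.1.1, with background subtraction and detrending within an array and no scaling between arrays. The depth of an array is not a read count, and the number of arrays limits the precision. The 75th percentile of intensity ran from 111 to 418, 45.1% to 58.2% of probes were well above background and 0 spots were saturated. The well-above-background and outlier flags, of another unit, are as deposited. Of 55681 probes 26625 were named through their accession and RefSeq.

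Levels were log2 of the processed intensity minus the array's 75th percentile, for the probe of each gene with the highest mean. Genes flagged well above background on all arrays of some group were tested (14466 of 20166, with 5700 set aside). limma 3.58.1 in R 4.3.3 (statmod 1.5.0) fitted 10 group means and a term for scan run 2, with Benjamini-Hochberg adjustment within each of 10 comparisons. The scripts were tested on simulated data. The authors' deposited log2 value table held 99.4% of its values, as deviations from a probe's median, within 0.01 of those computed here. Its values are centred per probe on a baseline that stays unknown, and its scale and direction match. Its column medians were, for replicates in order, -0.02, 0.07, -0.12 and -0.24 (treated) and -0.13, 0.12, -0.22 and -0.22 (untreated) in wild-type cells. They were 0.39 and -0.32 (treated) and -0.19 and 0.31 (untreated) in Perk-null cells, and 0.49 and -0.06 (treated) and -0.19 and -0.25 (untreated) in Atf4-null cells. In eIF2a A/A cells they were 0.04 and -0.02 (treated) and -0.01 and 0.03 (untreated), and in Fv2E-PERK cells -0.19 and -0.08 (treated) and -0.23 and -0.18 (untreated).

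Replicate numbers in the labels were checked for pairing. Treated and untreated wild-type arrays of the same number deviated together (r = 0.501, 0.365, 0.573 and 0.608, across genes). The best match of replicate 2 was replicate 1, however, and that of replicate 3 was replicate 4, each from the same scan run. Pairs within a run are therefore not established by the numbers. In the other genotypes r was -0.473 in Perk-null, 0.067 in Atf4-null, 0.056 in eIF2a A/A and 0.015 in Fv2E-PERK cells.

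The 10 genes and the lists were chosen with earlier results of these data known. Named beside the 10 genes are the mutated genes, up to 4 genes per list with the largest change among those called in wild-type cells, and the 3 genes likest to each of the 10. Alternatives changed the background correction (normexp), scaling (quantile), value source, filter, probe rule, slide, run and array terms, samples fitted and replicate block, and left out each array. Those chosen after seeing the data were a term for the second slide of run 2 and a crossed replicate block.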

Additional observations from a re-analysis of the deposited data

Results flagged for a closer look

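In untreated wild-type cells 1 of 4 arrays stood apart for Pdia3, at 4.37 (replicate 1), below the others at 4.54 to 4.57. In tunicamycin-treated wild-type cells replicate 1 stood apart for Ero1b, at 3.26, above the others at 2.71 to 2.79. Such a gap arises by chance in about 1 in 20 groups.

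Responses that differed from the wild-type response by the fit's own test of the difference share the wild-type arrays. In Perk-null cells they were those of Pdia3 (-0.72), Pdia4 (-2.54), Pdia6 (-1.02), Ero1a (-2.78), Ero1b (-2.55) and Creld2 (-2.51). In Atf4-null cells they were those of Pdia3 (-0.56), Erp44 (0.67) and Ero1a (-3.40). In eIF2a A/A cells they were those of Pdia3 (-0.90), Pdia4 (-1.84), Pdia5 (-0.75), Pdia6 (-0.73), Ero1a (-1.50) and Creld2 (-1.34).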

How the results depend on the processing

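Counts below are of the 10 genes called, and the cause of each change was not tested. With only the arrays of the groups compared, 0 were called in Perk-null, 0 in Atf4-null (9 and 8 at an unadjusted p below 0.05 in limma) and 2 in AP-treated cells, 1 differed between the Atf4-null and wild-type responses, and 0 between untreated Atf4-null and wild-type cells (2 unadjusted). Without the run term these were 3 for Perk-null cells, 1 for the Atf4-null difference and 1 for untreated Atf4-null cells. In wild-type cells 8 were called both with only the wild-type arrays fitted and without the run term. Array weights gave 7 with AP, 1 for the Atf4-null difference and 0 for untreated Atf4-null cells (2 unadjusted), normexp gave 6 for the Atf4-null difference, and a filter on all arrays 1 for untreated Atf4-null cells. Leaving out 1 array gave 3 to 5 in Perk-null, 8 to 9 in Atf4-null, 4 to 6 in eIF2a A/A, 9 to 10 in wild-type and 0 in AP-treated cells. For the differences from the wild-type response it gave 5 to 6 (Perk-null), 1 to 4 (Atf4-null, 1 without treated Atf4-null replicate 2) and 4 to 6 (eIF2a A/A). For untreated cells it gave 6 to 8 (Perk-null) and 0 to 3 (Atf4-null, 0 without its replicate 1 and 1 without wild-type replicate 2). The Ero1a minus Ero1b change was -1.616 in run 1, -1.554 in run 2 and -1.885 to -1.376 without 1 array. Its exact permutation p was 0.0571 without any 1 of the treated arrays, where 0.0286 was possible, and 0.0286 without any 1 of the untreated ones. With the replicate block it was -1.585 (exact permutation p = 0.125, the smallest possible), and the pairing gave 4 genes in Perk-null, 9 in Atf4-null, 6 in eIF2a A/A, 9 in wild-type and 0 in AP-treated cells and 6, 2 and 5 for the differences. The gene not called in Perk-null cells with the block was P4hb (adjusted p = 0.0878). A Perk-null correlation below -0.1 hints at crossed numbers, and crossing them, chosen after seeing the data, gave 4 genes for the response and 5 for the difference; a second-slide term, also chosen then, gave 5, 6 and 7 (untreated). Over all genes the block called 153 against 330 in Perk-null, 346 against 708 in eIF2a A/A, 281 against 587 in AP-treated cells, and 1177 against 1902 for the Perk-null difference.

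Directions turned in 15 single values. In Atf4-null cells Ero1a was 0.026 with normexp, and Txndc5 was 0.18 with quantile normalization and -0.235 to 0.152 without 1 array. The AP change of Pdia4 was -0.263 to 0.045 without 1 array. For the Atf4-null difference, quantile normalization gave 0.10 for Pdia3, 0.17 for Pdia4 and 0.17 for Ero1b. Creld2 was -0.10 with normexp, -0.040 against run 2 and -0.0143 to 0.179 without 1 array, and Ero1b was 0.24 against run 1 and -0.423 to 0.234 without 1 array. Of the other single values, 866 kept direction and call under settings other than leaving out 1 array, 30 gained and 66 lost a call. Without 1 array 481 kept both, 3 gained and 49 lost a call. Quantile normalization moved the all-gene median of the Atf4-null difference to -0.0026, against -0.13, and the share of calls that were higher to 50.8%, against 35.8%. That share was 46.2%, against 56.5%, in wild-type cells and 56.2%, against 44.6%, for the eIF2a A/A difference. Dim spots limit Ero1a in Atf4-null cells.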
